A study of Mus musculus with 5 samples.

Results

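Perilipins and the enzymes of lipid droplet turnover were followed across the spinal cord of mice with both copies of the long non-coding RNA gene Lhx1os disrupted. The set holds 10 of the 55471 genes in the count table: the droplet coat genes Plin2, Plin3, Plin4 and Plin5, the lipolysis genes Pnpla2, Abhd5, Lipe and Mgll, and the triglyceride synthase genes Dgat1 and Dgat2. Plin4 was picked because of its difference between the genotypes, and the other 9 genes were chosen by function to stand beside it. The difference of Plin4 between the genotypes, read from all 5 libraries, is therefore described without a test, and nothing is supported with it. Polyadenylated RNA was sequenced from 2 libraries of Lhx1os -/- (KO) spinal cord and 3 libraries of WT spinal cord, all from resting male C57BL/6J mice aged 3 months. The KO line was made in fertilized eggs with Cas9 mRNA, 1 guide RNA against the second exon of Lhx1os and a donor oligonucleotide that carries a synthetic poly(A) signal and MAZ elements, a design meant to end transcription there. As the labels describe it, no promoter or Cre limits the mutation to a cell type, and they do not say how many founders gave the line. Each library has a number of its own in its column header, but the labels do not say whether libraries came from separate animals. Errors and p-values therefore describe the spread among the 5 libraries, part of which may be technical.

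Lipid droplets store triglycerides and sterol esters under a single layer of phospholipid, and perilipins cover that surface and control which lipases reach it. Triglycerides are made in a last step by the DGAT enzymes and are taken apart in sequence by adipose triglyceride lipase (Pnpla2) with its co-activator Abhd5, by hormone-sensitive lipase (Lipe) and by monoacylglycerol lipase (Mgll). In the nervous system droplets are found mainly in glia, and Mgll is best known there for breaking down an endocannabinoid.

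Total counts over genes were 16384033 and 15973063 in the KO libraries and 16086041 to 19437533 in the WT libraries. Lhx1os itself had 0.797 and 0.688 CPM (counts scaled to library size with the TMM factors of edgeR) in the KO libraries, against 3.33, 3.37 and 3.14 CPM in the WT libraries. Both KO libraries lay below all WT libraries for the targeted gene, so none went against its label. Markers of neurons (Snap25, Nefl), oligodendrocytes (Mbp) and motor neurons (Prph, Slc5a7) were present in every library, as the tissue label states.

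The sequence of Plin4 sets it apart from the other droplet genes, and it is shown because it bears on how its reads can be counted. The longer Plin4 transcript of GENCODE M21 (5756 bases, 4209 of them coding) holds a tandem repeat of 99 bases, or 33 codons, which encodes the long amphipathic stretch by which the protein binds droplets. Shifted by 99 bases against itself, the region from base 601 to base 3087 was identical at 77.6% of positions, against 38.1% at the next best shift between 30 and 150 bases. The region lies in exons 5 and 6 and takes 43.2% of the transcript. Below are 4 consecutive units from exon 5, on the minus strand at chr17:56106403-56106501, chr17:56106304-56106402, chr17:56106205-56106303 and chr17:56106106-56106204 of GRCm38, in the order of transcription. This run was picked because its units are the most alike of any 4 consecutive in-frame units within a single exon. Capitals mark bases that differ from the unit before.
Plin4 unit 1: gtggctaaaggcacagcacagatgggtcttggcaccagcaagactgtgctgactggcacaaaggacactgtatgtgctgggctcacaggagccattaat
Plin4 unit 2: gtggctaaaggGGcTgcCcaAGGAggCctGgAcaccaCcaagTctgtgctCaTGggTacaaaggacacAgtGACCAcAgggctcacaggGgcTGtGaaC
Plin4 unit 3: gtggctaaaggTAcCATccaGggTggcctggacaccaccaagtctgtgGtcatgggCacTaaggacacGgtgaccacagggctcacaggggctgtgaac
Plin4 unit 4: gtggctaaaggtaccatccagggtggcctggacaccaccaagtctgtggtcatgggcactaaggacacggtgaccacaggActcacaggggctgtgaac
The second unit differed from the first at 29 bases, 18 of them at the last position of a codon, and the fourth differed from the third at 1 base. Of all stretches of 50 bases in the transcript, 17.4% occurred more than once within it, and of those of 100 bases 8.66% did. In the longest transcript of each of the other 9 genes this share was 0.0%, and no window matched the next by more than 47.5%. Read length is not given in the sources used here, and the part of the repeat in the counts of Plin4 was not tested.

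**Figure D1:**
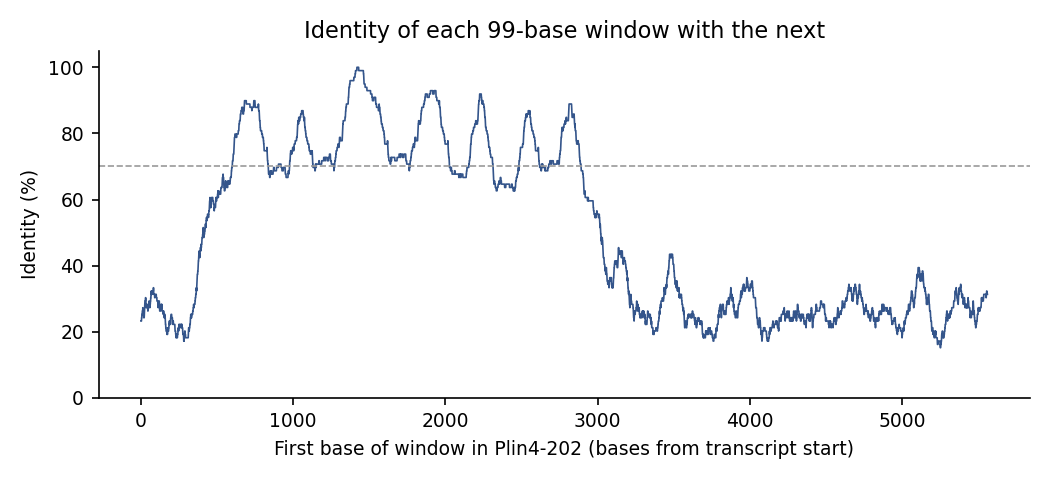
Identity (%) between each window of 99 bases and the window that follows it, by the first base of the window in the longer Plin4 transcript. The dashed line marks 70%. From the first to the last window above it, with its compared window, the stretch runs from base 601 to base 3087, and identity dips under the line several times within it.

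Of the droplet genes, Plin4 had the lowest level in KO relative to WT. Plin4 (ENSMUSG00000002831) had 162 and 176 counts in the KO libraries, against 731, 782 and 382 counts in the WT libraries. These are levels of 9.94 and 11.002 CPM in KO, and of 43.5, 39.9 and 23.5 CPM in WT. Both KO libraries lay below all WT libraries, and the WT libraries were far apart, with WT replicate 3 the lowest. The mean was 10.5 ± 0.754 CPM in KO (SD, n = 2) and 35.7 ± 10.7 CPM in WT (SD, n = 3), so KO stood 3.41-fold below WT. In edgeR this was −1.77 on the log2 scale (SE 0.23), and of the 16052 genes tested 0.0872% had a change at least as large in either direction. Leaving out each library in turn gave log2 fold changes between −1.998 and −1.61. RNA from a whole tissue does not tell fewer cells of a type from less RNA per cell.

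**Figure D2:**
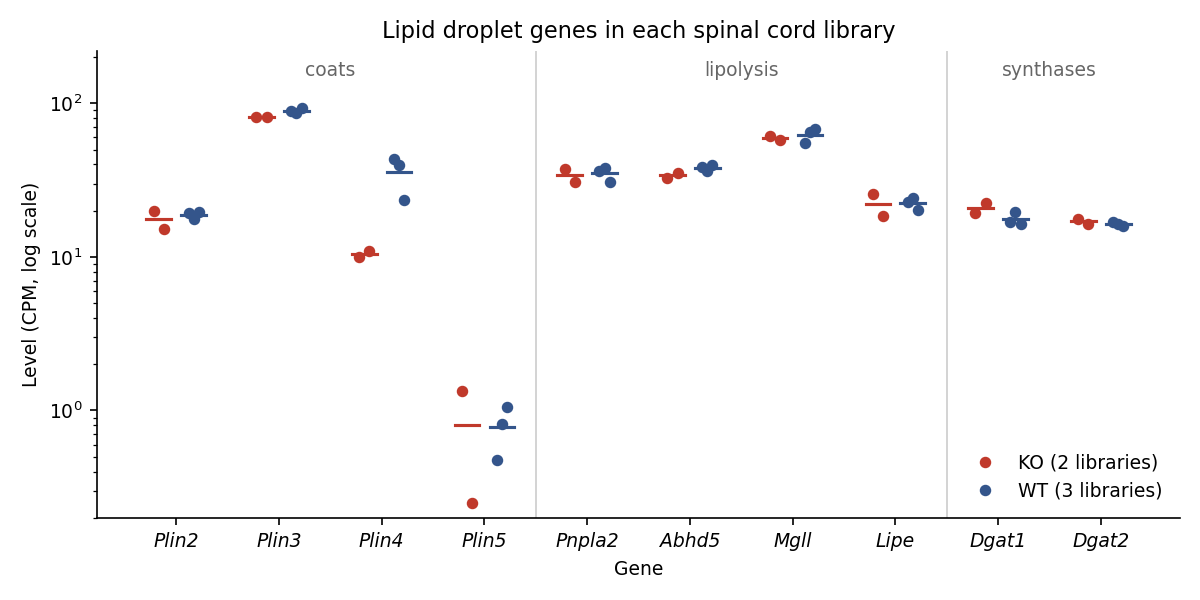
Level (CPM, log scale) of the 10 droplet genes in each library, KO to the left of WT for each gene, with points for libraries and bars for group means. Plin4 stands at 9.94 and 11.002 CPM in KO and between 23.5 and 43.5 CPM in WT, and the KO and WT points of the other genes lie at similar heights, with those of Plin5 scattered between 0.250 and 1.35 CPM.

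The other coat genes did not show a difference of that size. Plin3, a coat protein that moves between the cytosol and young droplets, had 81.3 and 81.7 CPM in the KO libraries, against 89.3, 86.6 and 92.8 CPM in the WT libraries. Its groups did not overlap, yet the log2 fold change was only −0.14 (SE 0.06). Plin2, the coat protein found on droplets of most cells, had 20.0 and 15.3 CPM in KO and 19.4, 17.6 and 19.5 CPM in WT. KO replicate 1 stood above all WT libraries for Plin2 and KO replicate 2 below them, for a log2 fold change of −0.09 (SE 0.13). Plin5, which links droplets to mitochondria in oxidative tissues, was barely detected, with 22 and 4 counts in KO and 8, 16 and 17 counts in WT. Its log2 fold change of 0.04 had an error of 0.60, and it became −1.61 when KO replicate 1 was left out and 0.785 when KO replicate 2 was, so no difference could be seen at this depth.

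Genes that break triglycerides down lay close to their WT levels. Abhd5, the co-activator of the first lipase, had 32.8 and 35.1 CPM in the KO libraries and 38.3, 36.4 and 39.8 CPM in the WT libraries. Both KO libraries were lower than all WT libraries for Abhd5, and the log2 fold change was −0.17 (SE 0.08). The lipase gene Pnpla2 itself had 37.4 and 30.9 CPM in the KO libraries and 36.3, 38.2 and 30.7 CPM in the WT libraries. It averaged 34.1 ± 4.58 CPM in KO and 35.1 ± 3.89 CPM in WT, a log2 fold change of −0.04 (SE 0.11). Lipe, the next lipase of the chain, had 25.8 and 18.5 CPM in KO and 22.9, 24.1 and 20.1 CPM in WT, so that its KO libraries lay on either side of all WT libraries. Lipe averaged 22.1 ± 5.13 CPM in KO and 22.3 ± 2.05 CPM in WT, a log2 fold change of −0.02 (SE 0.14). Mgll had 61.4 and 57.8 CPM in KO and 54.9, 64.7 and 68.2 CPM in WT, so that the KO values fell inside the WT range (−0.07, SE 0.09). The signs for Pnpla2 and Lipe turned when single libraries were left out, as they did for Plin2.

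Both synthase genes had positive estimates with overlapping groups. Dgat1, the enzyme that esterifies diacylglycerol in the endoplasmic reticulum, had 19.3 and 22.4 CPM in the KO libraries and 16.9, 19.6 and 16.3 CPM in the WT libraries. WT replicate 2 lay between the KO libraries, and the log2 fold change of Dgat1 was 0.24 (SE 0.12), the next largest after Plin4. Dgat2, an unrelated enzyme with the same reaction that can also sit on droplets, had 17.6 and 16.5 CPM in KO and 16.8, 16.3 and 15.9 CPM in WT (0.06, SE 0.10). Both synthases kept a positive sign in all 12 alternative settings, though Dgat2 stood at only 0.008 without KO replicate 1. A constant sign was not particular to them, as Plin3, Plin4, Abhd5 and Mgll kept a negative one in all 12.

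All 10 genes passed the filter on low counts and were tested in edgeR's quasi-likelihood fit over 16052 genes. In that fit 0 of the 10 reached an adjusted p of 0.05, where 0.0187% of all genes did. At an unadjusted p under 0.05 there was 1 of the 10, Plin4, where 7.57% of all genes lay. DESeq2 called 1 of them, Plin4, where it called 0.451% of the genes to which it gave an adjusted p, and edgeR at an adjusted p under 0.1 called Plin4 alone, where it called 0.0934% of all genes. With robust dispersion edgeR called 0 of the 10 (0.0748% of all genes), and limma-voom called 0 (0.00623%). With 1 library left out, edgeR called 1 of the 10, Plin4, without WT replicate 1 or WT replicate 3. Over all genes it called 58 and 10 in those fits. It called 0 of the 10 without KO replicate 1, KO replicate 2 or WT replicate 2, where it called 0, 3 and 1 over all genes. Since Plin4 was picked by this contrast, nothing is read from these counts. The other 9 genes had adjusted p-values from 0.657 to 0.993 in edgeR, log2 fold changes from −0.17 to 0.24 and a median of −0.04, beside a median of 0.0044 over all genes tested. A p of this size does not show that levels were equal. The groups did not overlap for 3 of the 10, Plin3, Plin4 and Abhd5, each lower in KO. Among all genes tested the groups did not overlap for 24.9%, with KO below WT for 12% and KO above WT for 12.9%.

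**Figure D3:**
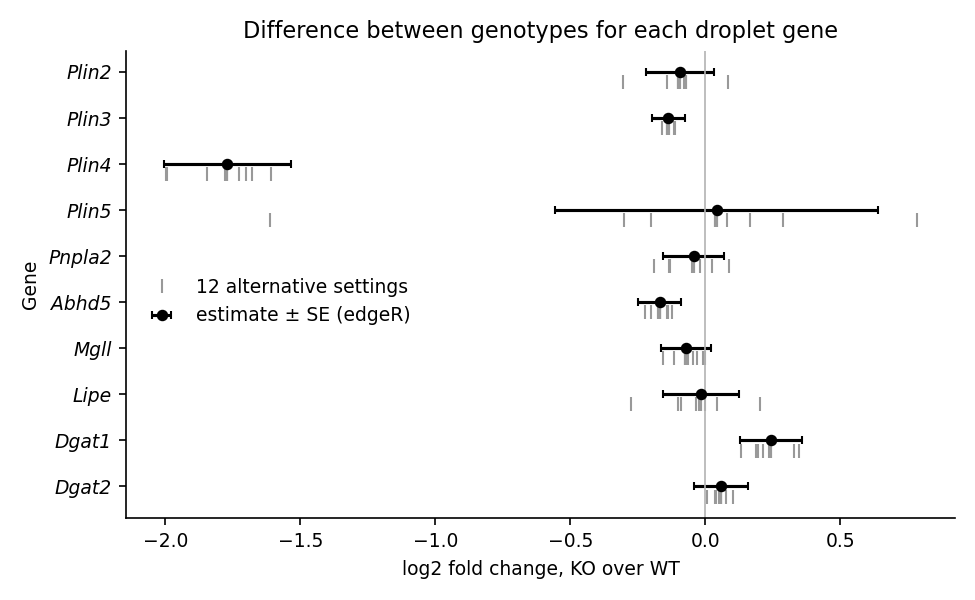
Log2 fold change (KO over WT) of the 10 droplet genes, with points for the edgeR estimate, bars for ± SE and ticks for the 12 alternative settings. Plin4 stands alone at −1.77, with every setting between −1.998 and −1.61, and the other estimates run from −0.17 to 0.24.

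Per unit of transcript length, Plin3 led the coat genes in every library. Levels between genes were compared as TPM (counts per base of annotated exon, scaled to the same sum in each library). Plin3 ranged from 82.6 to 94.7 TPM over the 5 libraries, apart from all other droplet genes. Mgll (40.6 to 51.9 TPM) and Pnpla2 (39.3 to 49.8 TPM) came next, with ranges that overlapped each other and no other gene of the set. Dgat1 (20.6 to 28.5 TPM), Abhd5 (21.2 to 25.8 TPM), Dgat2 (20.0 to 21.97 TPM) and Plin2 (16.9 to 21.9 TPM) followed, each overlapping its neighbour in the order. Lipe stood at 12.2 to 16.8 TPM, and Plin5 was last, at 0.466 to 2.49 TPM. Plin4 had no settled place, with 7.01 ± 0.554 TPM in KO (rank 9 of 10) and 23.7 ± 6.96 TPM in WT (rank 5).

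The share of Plin4 among perilipin transcripts was smaller in KO. The 4 coat genes summed to 113.6 and 108.6 TPM in the KO libraries, against 138.3, 138.7 and 133.8 TPM in the WT libraries. Plin4 made up 5.83% and 6.81% of that sum in KO, and 20.4%, 19.6% and 11.7% of it in WT. Without Plin4 the other 3 coat genes summed to 107.0 and 101.2 TPM in KO and to 110.1, 111.4 and 118.1 TPM in WT. Plin3 took 74.96 ± 3.19% of the sum in KO and 66.6 ± 3.66% in WT. These shares restate the difference by which Plin4 was picked.

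**Figure D4:**
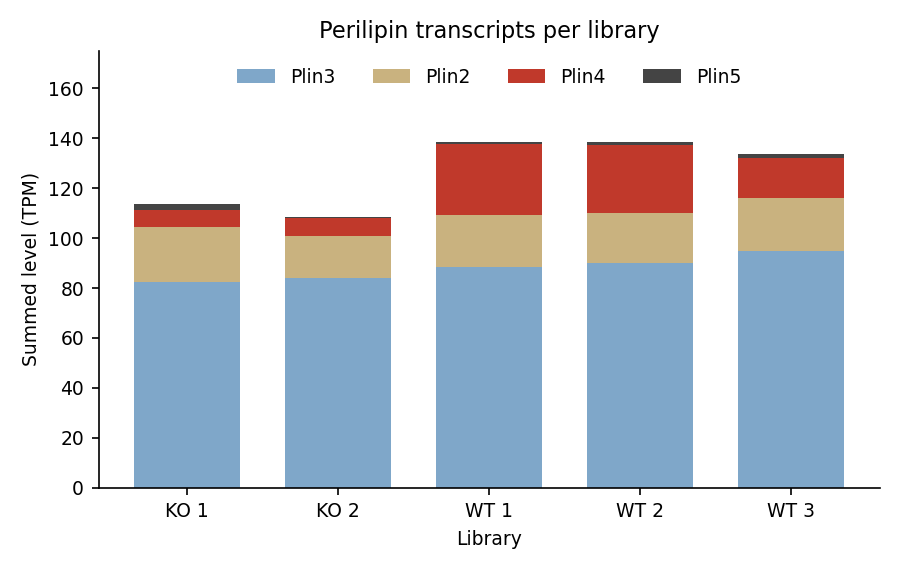
Summed level (TPM) of the 4 perilipin genes in each library, stacked by gene, KO libraries left of WT libraries. The red segment, Plin4, is 6.62 and 7.40 TPM high in KO and 15.7 to 28.3 TPM high in WT, and the light blue segment, Plin3, is the tallest in every bar.

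Plin4 also varied widely among the WT libraries. Its coefficient of variation over the 3 WT libraries was 29.9%, against 3.47% for Plin3, 4.47% for Abhd5 and 11.1% for Pnpla2. Among 3208 tested genes with a WT mean within 1.5-fold of that of Plin4 the median was 5.84%, and 15 of them (0.468%) varied as much or more. Plin5 had 36.8%, which 30.4% of the genes at its low level reached. Dgat2 was the steadiest of the set, at 2.73%.

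The genes nearest to the pattern of Plin4 over the 5 libraries were then looked up among 14851 genes with a mean of at least 1 CPM. The measure was the root mean square difference between log2 CPM values centred on each gene's mean, whose median over those genes was 0.90. Zbtb16, the gene of a zinc finger transcription factor, was nearest at 0.23, and Hif3a, a hypoxia-inducible factor subunit, followed at 0.28. Lhx1os came after these at 0.32. The next were Gm38104 (0.36), the X-linked Xlr3b (0.36), the adenosine deaminase gene Ada (0.42), the kinase gene Map3k6 (0.43) and Gm19439 (0.45). Xlr3b belongs to a family of near-identical copies, among which the counting could divide reads. Zbtb16 had 11.96 and 14.2 CPM in KO and 41.1, 56.1 and 35.2 CPM in WT, and Hif3a had 7.24 and 5.001 CPM in KO and 18.0, 18.7 and 11.9 CPM in WT. For both, as for Plin4, WT replicate 3 was the lowest of the WT libraries. These genes were found by their values, so their likeness carries no test.

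**Figure D5:**
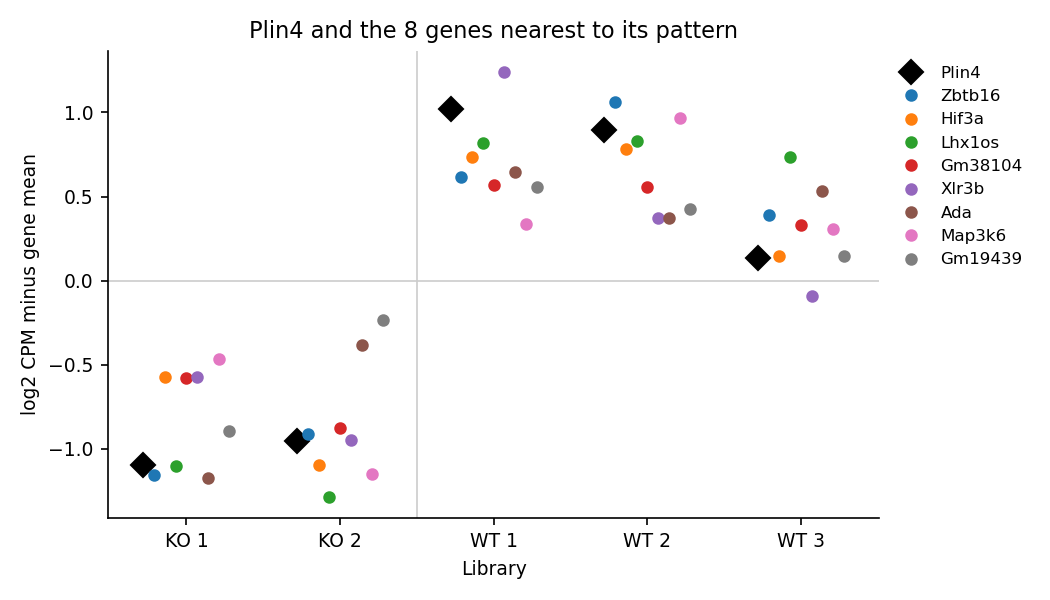
Level of Plin4 (black diamonds) and of the 8 genes nearest to it, as log2 CPM minus the mean of the gene over the 5 libraries. All 9 genes lie below 0 in both KO libraries, and WT replicate 3 is the library nearest to 0 for 8 of them, Ada being the exception.

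In the genome, 3 of the 10 genes lie together on the minus strand of chromosome 17 of GRCm38. Plin4 spans 56100591 to 56109803, Plin5 spans 56111601 to 56117596, only 1.80 kb away, and Plin3 spans 56277476 to 56292873, at 167.7 kb from Plin4. The other tested genes of this stretch were all within 0.25 of 0 on the log2 scale. On the far side of Plin4, Hdgfl2, a chromatin-binding factor of the hepatoma-derived growth factor family, lies on the opposite strand and shares 17 exon bases with it (0.294% of the exon bases of Plin4). Hdgfl2 had 962 and 961 counts in the KO libraries, against 1216, 1405 and 956 in the WT libraries, which edgeR put at −0.19 on the log2 scale (SE 0.09; adjusted p = 0.692). Plin5 is the nearest tested gene on the other side. Of genes farther out, Sh3gl1 stood at −0.23 (SE 0.09), Lrg1 at −0.25 (SE 0.46) and Sema6b at 0.20 (SE 0.10), and these 3 were named after their values were seen. Lipe and Abhd5 share 15.6% and 15.95% of their exon bases with antisense genes of low count, and Mgll shares 3.29%. The other genes of the set lie apart, Plin2 on chromosome 4 (86648386 to 86670060, minus strand), Mgll on chromosome 6 (88724412 to 88828360, plus strand), Abhd5 on chromosome 9 (122351608 to 122381524, plus strand) and Dgat1 on chromosome 15 (76502015 to 76511953, minus strand). Chromosome 7 carries Lipe (25379527 to 25398710, minus strand), Dgat2 (99153658 to 99182719, minus strand) and Pnpla2 (141455198 to 141460743, plus strand).

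The promoters of Plin4 and Plin5 are shown because these neighbouring coat genes were at different levels. They come from the RefSeq table for GRCm38.p6, which holds 11 entries for 8 of the genes (not Dgat1 and Dgat2), and run from 250 bases before the start site to 50 bases after it, at chr17:56109733-56110032 for Plin4 and chr17:56117499-56117798 for the first Plin5 start, both on the minus strand. Capitals mark the CCAAT box on either strand.
Plin4 promoter: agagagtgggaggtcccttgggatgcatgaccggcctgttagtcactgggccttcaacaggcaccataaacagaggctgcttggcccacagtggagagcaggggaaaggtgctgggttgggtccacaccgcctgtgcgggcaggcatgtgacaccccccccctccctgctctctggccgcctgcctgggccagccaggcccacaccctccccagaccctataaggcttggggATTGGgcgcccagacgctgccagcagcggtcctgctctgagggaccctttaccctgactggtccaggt
Plin5 promoter: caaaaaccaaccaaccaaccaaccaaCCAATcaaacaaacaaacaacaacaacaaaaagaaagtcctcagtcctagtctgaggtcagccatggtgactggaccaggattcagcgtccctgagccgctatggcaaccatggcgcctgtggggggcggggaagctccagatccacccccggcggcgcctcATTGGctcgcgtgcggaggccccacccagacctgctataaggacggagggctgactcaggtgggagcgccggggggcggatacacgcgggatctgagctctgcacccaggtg
A CCAAT box was present in 4 of the 11 promoters, close to the 37.4% of all 32851 promoters that hold it. They are those of Plin2, Plin3 and Plin4 and that of the first Plin5 start, and the promoter of the other Plin5 start holds none. It lay 18 bases before the start in Plin4, 73 in Plin2, 75 in Plin3, and 62 and 224 in the first Plin5 promoter. The strict glucocorticoid response element and the strict PPAR direct repeat were searched on both strands too and matched 0 of the 11 promoters, where 0.00913% and 0.0396% of all promoters match. The glucocorticoid half-site TGTTCT occurred in Mgll alone (18.97% of all promoters), the E-box CACGTG in Plin2, Lipe and Mgll (7.15%) and TATAAA in none (13.6%). The half-site is part of the full element, and a match is a description of letters only.

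Other genes of neutral lipid metabolism, in 7 lists, did not pass. Of 132 listed genes outside the set, of which Ldaf1 had no match, 119 were tested, 68 with a positive and 51 with a negative log2 fold change, and 0 passed in edgeR, where 0.0187% of all genes did. DESeq2 and edgeR without a filter each called 1, and edgeR without WT replicate 1 called 2. Over all genes, DESeq2 called 40 (0.451%), edgeR without a filter 96 and edgeR without WT replicate 1 58. The median log2 fold change of the 119 was 0.03, beside 0.0044 over all genes tested. At an unadjusted p under 0.05 there were 10 (8.40%), 2 of them lower in KO, where 7.57% of all genes lay.

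Droplet biogenesis and surface genes apart from the set had 17 tested members, 8 higher and 9 lower, with a median of −0.01. Acsl3, which activates fatty acids where droplets form, was the most abundant per length at 239.0 TPM over all libraries and stood at −0.04 (SE 0.07). Rab18, a droplet-bound GTPase, stood at −0.08 (SE 0.06), Spart, the gene of spartin, at −0.13 (SE 0.08), Bscl2, the gene of the droplet assembly protein seipin, at 0.08 (SE 0.07) and Cidea, a droplet fusion factor, at 0.30 (SE 0.23). The other neutral lipid hydrolases (16 tested, 9 higher and 7 lower, median 0.04) included Abhd12 at 0.04 (SE 0.06), Abhd6 at 0.05 (SE 0.07) and Dagla, which makes the endocannabinoid that Mgll breaks down, at 0.18 (SE 0.09). Lypla2, a thioesterase gene, stood at 0.24 (SE 0.08; adjusted p = 0.539 in edgeR) and the amide hydrolase gene Faah at 0.14 (SE 0.08).

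Other enzymes of glycerolipid and steryl ester synthesis had 9 genes higher and 9 lower, with a median of 0.01. Gpam, the mitochondrial acyltransferase that starts glycerolipid synthesis, stood at −0.13 (SE 0.06), Agpat1 at 0.13 (SE 0.06) and Lpin1 at 0.10 (SE 0.07). Agpat3 stood at 0.04 (SE 0.06), Agpat4 at 0.03 (SE 0.06) and Acsl6 at 0.05 (SE 0.08). Fatty acid oxidation genes (10 higher, 9 lower, median 0.02) ranged only from −0.10 to 0.15. Among them were Cpt1c at 0.15 (SE 0.08), Acadvl at 0.10 (SE 0.07), Decr1 at 0.13 (SE 0.09) and Acadl at −0.07 (SE 0.07). Of the PPAR and fatty acid responsive genes (11 higher, 8 lower, median 0.03), Pdk4, a brake on glucose oxidation that responds to fasting, averaged 20.6 ± 0.802 CPM in KO and 26.9 ± 3.93 CPM in WT (−0.39, SE 0.12; adjusted p = 0.525 in edgeR). Ppara, the fatty acid receptor of that family, stood at −0.63 (SE 0.26), at only 1.64 ± 0.372 CPM in KO and 2.55 ± 0.0187 CPM in WT, and Txnip at −0.35 (SE 0.19). Fabp3 (0.06, SE 0.10) and Rxra (0.05, SE 0.07) were the abundant members with estimates nearer to 0.

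Genes of fatty acid synthesis and uptake had more positive estimates. In synthesis and desaturation 11 were higher and 6 lower, with a median of 0.04. Srebf1, a transcription factor of lipid synthesis, averaged 113.9 ± 3.504 CPM in KO and 93.0 ± 6.04 CPM in WT (0.29, SE 0.07; adjusted p = 0.342 in edgeR). Acacb, a carboxylase that makes malonyl-CoA, stood at 0.31 (SE 0.11) and the fatty acid synthase gene Fasn at 0.19 (SE 0.07), while the abundant desaturase genes Scd2 (0.02, SE 0.07) and Scd1 (−0.01, SE 0.09) and Acly (0.09, SE 0.10) did not depart from 0 beyond their errors. In uptake and binding 10 were higher and 3 lower, with a median of 0.11, beside 0.0044 over all genes tested. Estimates in this list ran from −0.22 to 1.54, and it holds Fabp4, which is also among the adipocyte markers below. The lipoprotein receptor gene Vldlr stood at 0.21 (SE 0.07) and the fatty acid transport protein gene Slc27a3 at 0.47 (SE 0.20), and the abundant Apoe (0.00, SE 0.06), Dbi (−0.06, SE 0.07) and Lrp1 (0.06, SE 0.09) lay within their errors of 0.

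Adipocytes and muscle fibres are rich in several of these genes, so their markers were measured in the same libraries. The summed level of 9 adipocyte markers was 70.9 and 1.40 TPM in the KO libraries and 15.8, 8.97 and 1.33 TPM in the WT libraries. KO replicate 1 stood apart, with 36 counts of the adipocyte coat gene Plin1, against 0 in KO replicate 2 and 4, 3 and 0 in the WT libraries. Fabp4, a fatty acid binding protein of adipocytes, had 237 and 6 counts in KO and 91, 39 and 5 counts in WT. The adipokine gene Lep had 0 counts in all libraries, which allows up to 0.154 to 0.188 CPM (3 counts, counting error only). Of the 9, 4 could be tested, each higher in KO by estimate (median 1.61 on the log2 scale), and 0 passed. Plin4 was lower in KO replicate 1 (9.94 CPM) than in KO replicate 2 (11.002 CPM), and it stood at −1.70 on the log2 scale when KO replicate 1 was left out. Over WT replicates 1, 2 and 3 Plin4 fell in the same order as the adipocyte sum, at 43.5, 39.9 and 23.5 CPM. The part of adipocytes in the level of Plin4 was not tested. Plin2, Plin5, Pnpla2, Lipe, Mgll and Dgat2 were higher in KO replicate 1 than in KO replicate 2. Plin3, Plin4, Abhd5 and Dgat1 were lower in KO replicate 1. The part of the adipocyte markers in these differences was not tested. The summed level of 10 skeletal muscle markers was 32.0 and 13.4 TPM in KO and 14.3, 14.5 and 9.37 TPM in WT. Meningeal fibroblast markers summed to 196.2 and 199.5 TPM in KO and to 191.9, 273.9 and 333.7 TPM in WT, and astrocyte markers to 5469 and 5511 TPM in KO and to 5313 to 6141 TPM in WT. The groups overlapped in each of these 4 sums. Of the 14 marker lists, 2 had sums that did not overlap, where the groups did not overlap for 24.9% of all single genes tested. Oligodendrocyte precursor markers summed to 164.5 and 148.5 TPM in KO, below every WT library (187.8, 198.6 and 183.9 TPM). Of these 6 markers 5 were lower in KO by estimate, with a smallest adjusted p of 0.0603 in edgeR. In that fit 4 of them lay at an unadjusted p under 0.05, where 7.57% of all genes tested lay. Ependymal markers summed to 70.6 and 72.7 TPM in KO and to 56.3, 62.0 and 67.3 TPM in WT. By estimate the oligodendrocyte precursor markers had a median of −0.22 on the log2 scale. Other lists leaned lower too, with 7 of 7 meningeal fibroblast markers lower (median −0.44). Lower as well were 6 of 6 Schwann cell, 7 of 8 astrocyte and 6 of 7 microglia markers. Higher were 6 of 8 neuron, 5 of 6 motor neuron, 4 of 5 ependymal and 7 of 8 tested skeletal muscle markers. The part of any of these lists in the level of Plin4 was not tested. Over all 14 lists 0 markers passed in edgeR.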

How the data were processed

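Raw counts of reads per Ensembl gene were deposited by the authors in 1 table over 5 libraries, without normalization. The submitters' processing notes name cutadapt, Trimmomatic, STAR 2.5.2b, HTSeq and GRCm38, and per the labels' protocols libraries were made with a stranded mRNA kit. Annotation release and strand setting: not given in the sources used here. Of 439 genes covered wholly by exons on the opposite strand 17.1% had a count, against 5.34% of 711 covered on the same strand, which does not settle that setting.

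Symbols, coordinates and lengths came from GENCODE M21 (GRCm38), which matched 55230 identifiers. 1 of 244 list symbols had no match. Genes were filtered with filterByExpr (minimum count 10, total 15) and KO was compared with WT by the quasi-likelihood test of edgeR 4.0.16 (TMM, no covariates, Benjamini-Hochberg, threshold 0.05) in R 4.3.3. The SE is the log2 fold change divided by the square root of F. Log2 CPM used a prior count of 2. Common dispersion corresponded to a coefficient of variation of 7.48%. Libraries of a group differed beyond sampling noise (chi-square per degree of freedom 4.01 to 7.47). Alternatives used DESeq2 1.42.0, limma-voom (limma 3.58.1), other size factors and filters, robust dispersion, the replicate number as a block, and each library left out.

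The members and lists were chosen with earlier results of these data known. Named were all members, from each pathway list any passing gene, the 3 of smallest p and the 3 most abundant per length, the 8 genes nearest to Plin4, genes sharing exons with a member, the nearest tested genes beside Plin4, and the 2 most abundant genes of marker lists, of which only those that touch a result are given. A few genes that this rule names are not reported here.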

Additional observations from a re-analysis of the deposited data

How the results depend on the processing

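The log2 fold change of Plin4 kept its sign in all 12 alternative settings, between −1.998 and −1.61. Whether Plin4 was called did depend on the setting. The count of the 10 droplet genes called, 0 in edgeR, was 1 with DESeq2 size factors, with DESeq2, with no filter on low counts and at an adjusted p under 0.1, and 0 to 1 with a library left out. Over all genes the count of 3 became 6 with DESeq2 size factors, 40 with DESeq2, 1 with limma-voom, 96 with no filter, 12 with robust dispersion and 15 at an adjusted p under 0.1. With a library left out it ran from 0 to 58 (0 without KO replicate 1, 58 without WT replicate 1, 1 without WT replicate 2 and 10 without WT replicate 3). Of the other lipid genes, 1 was called with DESeq2 and 1 with no filter, and 0 to 2 with a library left out. Replicate numbers were shared by the genotypes, but same-numbered libraries did not deviate together (correlations 0.058 and 0.002). The deviations of 2 KO libraries mirror each other, so this cannot decide whether the numbers pair libraries. With the replicate number as a block, edgeR called 25 genes, of which 1 was a droplet gene, Plin4 (−1.99). No KO library has the number 3, so WT replicate 3 does not enter the genotype comparison in that fit. Its estimate for Plin4 was close to the −1.998 found without WT replicate 3. Signs turned for genes near 0: Plin5 stood at −0.30 with limma-voom, and with a library left out Plin5 ran from −1.61 to 0.785, Plin2 from −0.31 to 0.0855, Pnpla2 from −0.19 to 0.0873 and Lipe from −0.28 to 0.20. With the length of the longest transcript in place of all exons 4 of the 10 genes kept their rank by level, and 6 to 10 did with a library left out. All 8 genes nearest to Plin4 were the same with a prior count of 5. The cause of these differences was not tested. Depth limits Plin5 most, at 4 to 22 counts per library.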
